A study of Mus musculus with 18 samples.

Results

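The potassium pumps and channels of colon epithelium are taken here as 7 genes: Atp12a, Atp1b1, Fxyd4, Kcnq1, Kcne3, Kcnn4 and Kcnma1. They were chosen by name, and every array feature (probe set, a group of short oligonucleotides that reads 1 stretch of a transcript) whose platform symbol was exactly one of these names was used, which gave 16 of the 34945 probe sets with 1 gene symbol. All 16 passed the filter on low values, and the 7 genes were among 12870 genes tested. Atp1b1 and Kcnma1 have 5 probe sets each, Kcnn4 has 2, and the remaining genes have 1 each. Where a gene has several, the probe set with the highest mean stands for it unless another is named.

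The study followed gene expression of mouse distal colon around the day. Mice had been kept for 2 weeks with 12 h of light and 12 h of darkness, lights on at 7 and off at 19 on a 24 h clock, with free access to food, and distal colon was removed about 0.5 cm above the anus every 4 h. Affymetrix arrays measured total RNA at 6 collection times (8am, 12pm and 4pm in the light; 8pm, 12am and 4am in the dark) with 3 arrays, a, b and c, per time, 18 in all. The labels give no strain, age, sex, treatment or genotype nor do they tie the arrays to animals, so p-values measure only the spread between these arrays, which may be technical.

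Distal colon both secretes and reclaims potassium. The sodium pump on the basolateral side of the epithelial cell brings potassium in, the colonic proton-potassium pump on the luminal side recovers it from the lumen, and potassium channels on either side let it out again. Basolateral channels hold the membrane voltage that drives chloride secretion, whereas the large-conductance channel on the luminal side carries secreted potassium, and aldosterone raises several of these proteins in colon. The tissue was whole distal colon and not isolated epithelium, so the large-conductance channel of smooth muscle is read by the same arrays. In such bulk tissue, fewer cells of a type and less RNA per cell cannot be told apart.

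A value is the deposited signal on a linear scale, set by the authors' software to the same trimmed mean of 500 in every array. Tests used log2(signal + 16), fold changes are on that scale, and adjusted p is the Benjamini-Hochberg value of limma, a linear model for arrays, over all 12870 genes with a threshold of 0.05. The Gapdh control is read at both ends of its transcript, and its 3′ over 5′ ratio, a measure of RNA or cDNA integrity, lay between 0.746 and 1.12 in 14 arrays. It was 36.0 for 4am a, 34.3 for 4pm b, 18.2 for 4am b and 2.33 for 4pm c. The main results of several members are also given without those 4 arrays, which leaves only 4pm a and 4am c at 4pm and 4am. Calls of single named probe sets and of named genes that are not members are given with all arrays only. Means over 11 tested markers of colon epithelium ranged from 12.30 to 13.45 (log2) over the arrays, with the lowest array at 4am, and means over 8 smooth muscle markers ranged from 9.79 to 13.03, also lowest at 4am. Both cell types were therefore present by their markers.

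The members lie on 4 chromosomes in the RefSeq annotation of mouse build GRCm38.p6, and all are protein-coding. Atp12a (chromosome 14, 56364669 to 56388551) and Kcnma1 (chromosome 14, 23292288 to 24005110) share one, and Kcnn4 (24369826 to 24385212), Kcne3 (100176507 to 100184869) and Kcnq1 (143106877 to 143427050) share chromosome 7. Atp1b1 lies at 164437099 to 164458355 of chromosome 1 and Fxyd4 at 117933558 to 117937714 of chromosome 6.

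RefSeq promoter windows of the same build were at hand for 5 of the 7 members, 6 windows in all, and the 250 bases before the transcription start were searched on both strands for motifs of clock factors and steroid receptors and for the TATA box. The letters searched were those of the E-box bound by CLOCK and BMAL1 (CACGTG), the D-box bound by DBP and its relatives (TTANGTAA), the core bound by ROR and REV-ERB proteins (AGGTCA), the binding unit of steroid hormone receptors (AGAACA) and the TATA box (TATAAA), none of which contains another. The only match was an E-box 133 to 128 bases before the start of Kcnn4 that the table uses, which lies inside the annotated span of the gene, as do the starts of Fxyd4, Kcne3 and Kcnma1, and 6.02% of all 32841 windows of this length hold one. The D-box is in 2.06% of all windows, the ROR core in 14%, the receptor unit in 16.1% and the TATA box in 12.4%. The stretch of Kcnn4 is shown with the E-box in capitals because it is the only one found (chr7:24370118-24370147, plus strand), and the whole window of Atp1b1 because that gene differed between sets of collection times, as described further on (chr1:164458356-164458605, minus strand). The Atp1b1 window is 70.4% G and C and holds none of the motifs, so it has no capitals.
Kcnn4: tgtgtctttgccCACGTGgatgaactcttc
Atp1b1: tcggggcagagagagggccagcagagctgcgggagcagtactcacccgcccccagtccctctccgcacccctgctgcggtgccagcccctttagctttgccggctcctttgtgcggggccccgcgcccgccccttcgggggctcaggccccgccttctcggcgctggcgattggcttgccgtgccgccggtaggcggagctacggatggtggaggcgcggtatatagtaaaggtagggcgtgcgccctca

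No member passed the test for any difference between the 6 times, whereas 17% of all genes tested did. For 5 of the 7 the limma adjusted p lay just above the threshold: 0.0504 for Atp12a, 0.0562 for Fxyd4, 0.0570 for Kcnma1, 0.0571 for Kcnq1 and 0.0608 for Atp1b1. It was 0.173 for Kcne3 and 0.572 for Kcnn4. The median over the members was 0.0571, beside 0.15 over all genes. None of the 7 passed the test for a 24 h cosine curve (0.0389% of all genes did), nor did any of their 16 probe sets (0.0111% of all probe sets did), and none passed that for light against dark (0% of all genes, with 799 genes at an unadjusted p under 0.05). Before adjustment, p was under 0.05 for 5 of the 7 in the any-time test, beside 5439 of all 12870 genes. It was so for Atp12a, Fxyd4 and Kcnq1 in the 24 h test, beside 509 of all genes, and for Atp12a in that of light against dark. In the 24 h fit the limma adjusted p of the members ran from 0.948 to 0.993.

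**Figure D1:**
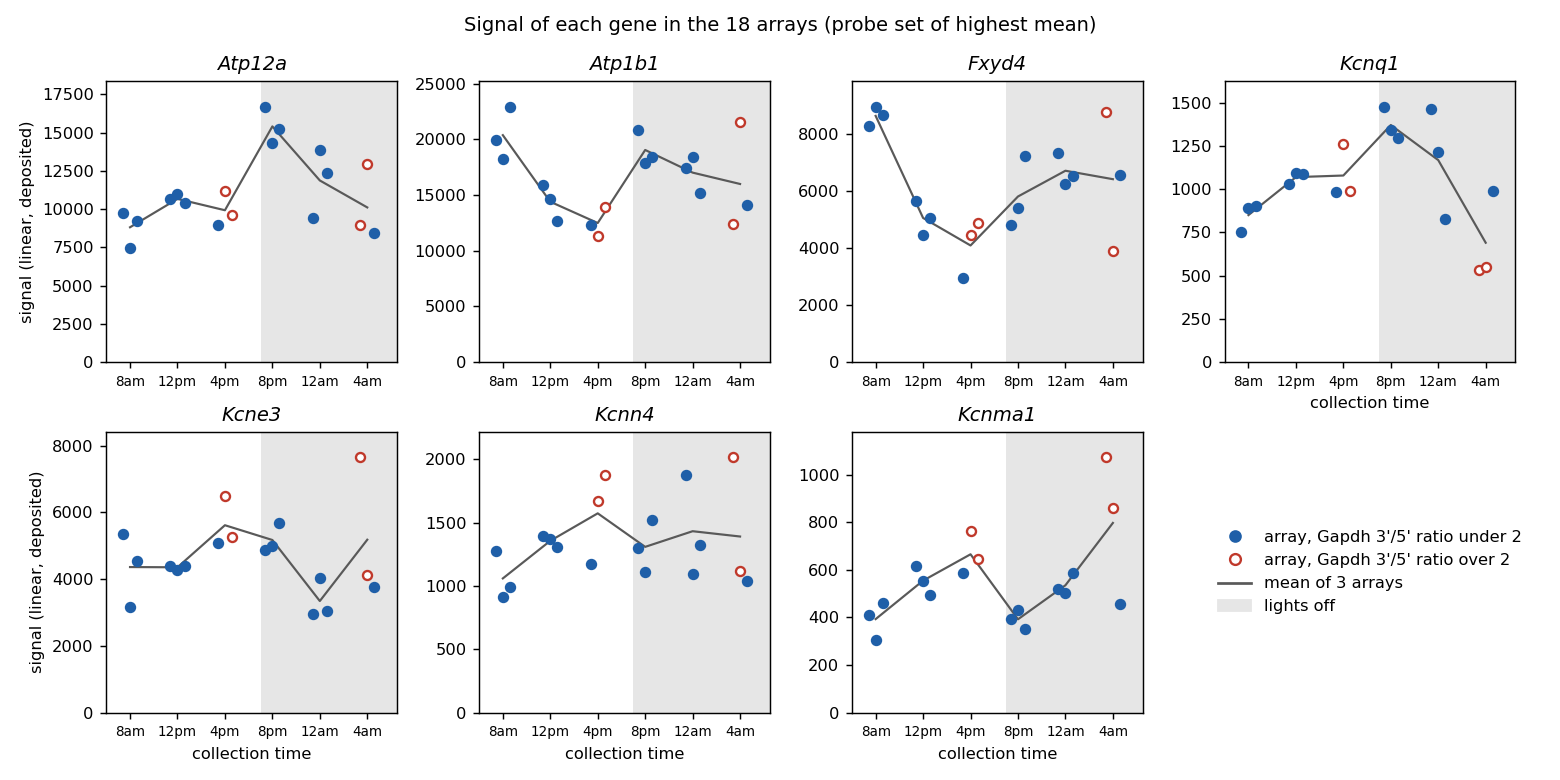
Deposited linear signal (vertical axis, from 0) of the probe set of highest mean of each gene in every array, by collection time, with the dark period shaded. Points are single arrays, open red circles are the 4 arrays with a Gapdh 3′ to 5′ ratio of 2.33 or more, and lines join the means of 3 arrays. Atp12a and Kcnq1 have their highest mean at 8pm, Fxyd4 and Atp1b1 at 8am, and the open circles of Kcnma1 lie above all filled ones.

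Atp12a encodes the catalytic subunit of the colonic proton-potassium pump, which takes up potassium from the lumen in exchange for protons. At 8am the Atp12a signals were 9771.5, 7439.8 and 9217, those at 12pm 10633, 10972 and 10388, and those at 4pm 8956, 11197 and 9613. In the dark, the 8pm arrays gave 16697.5, 14304 and 15204, the 12am arrays 9409.9, 13858 and 12337, and the 4am arrays 8929, 12970.5 and 8418. The 3 arrays of 8pm were the highest of all 18, and none of the arrays at other times reached them. The mean log2 level was 13.91 ± 0.11 at 8pm and 13.10 ± 0.21 at 8am (SD, n = 3 each), the highest and lowest of the 6 times, a 1.75-fold difference. Between the other neighbours in the order of means (12am, 12pm, 4am, 4pm, 8am) the arrays overlapped.

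The level of Atp12a 12 h apart differed by -0.81 ± 0.19 (log2, SE) for 8am minus 8pm, against -0.14 for 12pm minus 12am and -0.01 for 4pm minus 4am. The joint test of these 3 differences gave a limma adjusted p of 0.408, in a comparison that 0.0777% of all genes and none of the members passed. Its unadjusted p was under 0.05 for 3 of 7 members, beside 1410 of all 12870 genes. The light-minus-dark difference was -0.32 ± 0.11 (adjusted p = 0.749), and the 24 h fit gave a log2 amplitude of 0.30 ± 0.09 with its peak 13.5 h after lights on (adjusted p = 0.948). Atp12a signals of the 4 arrays with a high Gapdh ratio all lay within the range of the other 14, from 7439.8 to 16697.5. Without those 4 arrays the lowest mean was at 4am (13.04, 1 array) in place of 8am. The any-time adjusted p was then 0.0123, and without the 3 of highest ratio 0.00853. With single arrays left out it ran from 0.0156 (without 4am c) to 0.138, and it was under the threshold without 4pm b, 12am a, 4am b or 4am c.

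Atp1b1 encodes the beta subunit of the sodium pump, which brings the catalytic alpha subunit to the membrane. Its signals at 8am were 19933, 18249.6 and 22939.7, those at 12pm 15873, 14625 and 12685.5, and those at 4pm 12279, 11291.5 and 13886. The 8pm arrays gave 20833, 17843 and 18453, the 12am arrays 17442, 18386 and 15201, and the 4am arrays 12367, 21523 and 14078. All arrays of 8am lay above all arrays of 12pm and 4pm, and 8am and 8pm overlapped. The mean log2 level was highest at 8am, 14.31 ± 0.17, and lowest at 4pm, 13.60 ± 0.15 (SD, n = 3 each), a 1.63-fold difference, and every pair of neighbours in the order of means overlapped.

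The collection times form 3 sets of times 12 h apart, 8am with 8pm, 12pm with 12am and 4pm with 4am. This grouping was chosen with earlier results of these data known, in which many genes moved together at times 12 h apart. The between-set p-values are therefore not tests of a grouping fixed beforehand, and no label names a batch. A difference between sets holds no 24 h cosine curve and no difference of the light from the dark mean. A 24 h pattern of another shape can enter it. Atp1b1 and Kcnma1 were the 2 of 7 members that changed between the sets (35% of all genes did). Atp1b1 averaged 14.26 ± 0.14 over 8am and 8pm, 13.93 ± 0.19 over 12pm and 12am and 13.76 ± 0.33 over 4pm and 4am (log2, SD, n = 6 each; limma adjusted p = 0.0226). The first set was 1.41-fold above the last. The mean over the colon epithelium markers stood in the same order, at 13.35 and 13.33 for 8am and 8pm, 13.08 and 13.15 for 12pm and 12am, and 12.93 and 12.80 for 4pm and 4am. Of the 11 markers 5 changed between the sets. Lgals4, Car4, Car1, Cdx1 and Cdh17 had the order of the mean, whereas Epcam, Slc26a3, Cdh1, Krt20, Vil1 and Cdx2 did not. Cdx2 rose in the opposite order, from 10.57 to 10.68 and 10.84. At 4am Cdx1 was at 8.71 ± 3.43 (log2, SD, n = 3). The order of the mean was not particular to the epithelial markers. The mean over the goblet cell markers had it too, at 13.45 and 13.37, 13.16 and 13.33, and 13.01 and 12.88. That over the smooth muscle markers did not, though Acta2 and Tagln among them did. The part of the epithelial share in the Atp1b1 result was not tested. The median signal of an array also differed between sets under the same trimmed mean. It ran from 160.7 to 183.8 at 8am and 8pm, from 187.6 to 251.7 at 12pm and 12am, and from 126.9 to 209.5 at 4pm and 4am. Without the 4 arrays of high Gapdh ratio the adjusted p was 0.00686 and the first set was 1.49-fold above the last. The call was lost with quantile normalization (Atp1b1 adjusted p = 0.129) and, at 0.0591, 0.0508 and 0.0555, without 8am c, 4pm b and 8pm a.

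The 5 probe sets of Atp1b1 did not read alike in the 4 arrays of high Gapdh ratio. In the 14 other arrays the 4 bright ones (1439036_a_at, 1418453_a_at, 1423890_x_at and 1451152_a_at) correlated with each other at r from 0.89 to 0.96, as a description over arrays that share their scaling. Over all 18 arrays, r of 1418453_a_at with the other bright ones was 0.71, 0.57 and 0.48. Its signals were 7436 in 4am a, 11595 in 4am b, 10777 in 4pm b and 11388 in 4pm c, all below the 13072 to 22688 of the other 14 arrays. In 4am b the other bright probe sets gave 21523, 19731 and 18504. Only 1418453_a_at, of the 16 member probe sets, passed the any-time test at the level of probe sets (limma adjusted p = 0.0183 over 27022 probe sets, of which 12.9% passed). The fifth, 1455949_at, had signals from 93.9 to 503 and r from -0.37 to -0.06 with the others.

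Fxyd4 encodes CHIF, a small membrane protein that binds the sodium pump, raises its affinity for sodium and is induced by corticosteroids in distal colon. Its signals at 8am were 8270.4, 8960.3 and 8672, those at 12pm 5648, 4455 and 5058, and those at 4pm 2950.3, 4439 and 4877. The 8pm arrays gave 4817, 5391 and 7212.5, the 12am arrays 7348, 6244 and 6539, and the 4am arrays 8783, 3895 and 6564. The 3 arrays of 8am lay close together and above all others except 4am a, and all arrays of 12pm and 4pm lay below all arrays of 12am. The mean log2 level was 13.08 ± 0.06 at 8am and 11.97 ± 0.38 at 4pm (SD, n = 3 each), a 2.15-fold difference and the widest among the members. In the order of means (8am, 12am, 4am, 8pm, 12pm, 4pm) only 8am and 12am did not overlap.

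Fxyd4 differed by 0.59 ± 0.26 (log2, SE) for 8am minus 8pm, -0.41 ± 0.26 for 12pm minus 12am and -0.60 ± 0.26 for 4pm minus 4am. The groups did not overlap in the first pair, with 8am higher, nor in the second, with 12pm lower. The joint limma test gave an adjusted p of 0.422. The 24 h amplitude was 0.37 ± 0.12 with its peak 21.5 h after lights on (adjusted p = 0.948). The arrays 4am a and 4am b, both of high Gapdh ratio, stood at 8783 and 3895, within the range of the 14 others. The between-set limma adjusted p was 0.0833 with all arrays. Without the 4 arrays of high ratio, which leaves only 4pm a and 4am c at those times, the amplitude was 0.53 ± 0.13. The 4pm level of Fxyd4 was then 11.53 (log2), that of 4pm a alone. With single arrays left out the any-time adjusted p ran from 0.0185 to 0.114 and was under the threshold without 4am a, 4am b or 4am c.

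**Figure D2:**
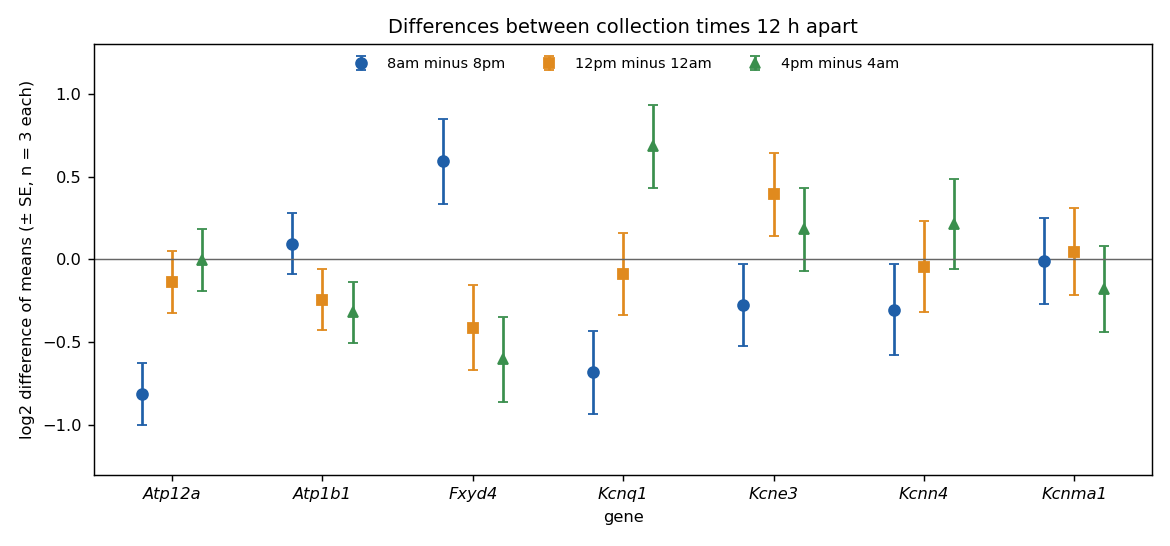
Log2 difference of means (vertical axis, ± SE from the limma fit, 3 arrays against 3) between collection times 12 h apart for each gene. Atp12a is lower at 8am than at 8pm by 0.81 and near 0 in the other pairs. All the other genes have differences of opposite sign in different pairs, lying furthest apart in Kcnq1 and Fxyd4.

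Among 12 h pairs, 3 of the 7 members did not overlap between 8am and 8pm (Atp12a and Kcnq1 lower at 8am, Fxyd4 higher), where 14.1% of all genes did not. Between 12pm and 12am 2 of 7 did not (Fxyd4 lower and Kcne3 higher at 12pm), beside 21.3% of all genes. Between 4pm and 4am all members overlapped, where 7.84% of all genes did not. These counts carry no test, and no member passed the joint test of the 3 pairs.

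Kcnq1 encodes the pore of the basolateral potassium channel that supports chloride secretion. Its signals at 8am were 752, 893 and 905, those at 12pm 1028, 1095.5 and 1086, and those at 4pm 985, 1264 and 988. The 8pm arrays gave 1478, 1341 and 1295, the 12am arrays 1465, 1215 and 825, and the 4am arrays 533, 549 and 989. All arrays of 8pm were above all arrays in the light, and the 2 lowest were 4am a and 4am b, below the 752 to 1478 of the 14 arrays of low Gapdh ratio. The mean log2 level was 10.44 ± 0.10 at 8pm and 9.41 ± 0.49 at 4am (SD, n = 3 each), a 2.04-fold difference. In the order of means (8pm, 12am, 4pm, 12pm, 8am, 4am) only 12pm and 8am did not overlap.

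Kcnq1 differed by -0.68 ± 0.25 for 8am minus 8pm, -0.09 for 12pm minus 12am and 0.68 for 4pm minus 4am (log2, SE 0.25 for each; joint adjusted p = 0.422 by limma). The 24 h amplitude was 0.39 ± 0.11 with its peak 11.3 h after lights on. Without the 4 arrays of high Gapdh ratio, which leaves only 4pm a and 4am c at those times, the 4pm minus 4am difference was -0.01. The amplitude was then 0.28 ± 0.09, while 8am minus 8pm stayed at -0.68. Leaving out 4am c, which leaves only the 2 low arrays at 4am, gave an any-time adjusted p of 0.00255.

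Kcne3 encodes the subunit that holds the Kcnq1 channel open in colon. Its signals at 8am were 5362, 3164 and 4556, those at 12pm 4378, 4278 and 4406, and those at 4pm 5087.5, 6487 and 5265. The 8pm arrays gave 4861, 4985 and 5667, the 12am arrays 2955, 4033 and 3043, and the 4am arrays 7649.7, 4127 and 3762. The arrays of 12am were all below those of 12pm, 4pm and 8pm, and the highest 2 of all, 4am a and 4pm b, are arrays of high Gapdh ratio. The mean log2 level was 12.45 ± 0.19 at 4pm and 11.70 ± 0.25 at 12am (SD, n = 3 each), a 1.68-fold difference, and all neighbours in the order of means overlapped. No test called it with all arrays: the limma adjusted p was 0.10 between sets and 0.611 within them.

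Over the 18 arrays r of the pore, Kcnq1, with its subunit Kcne3 was -0.16, and over the 14 arrays of low Gapdh ratio it was 0.10. With all arrays the mean of Kcnq1 was highest at 8pm and lowest at 4am, and that of Kcne3 highest at 4pm and lowest at 12am. In the 14 arrays both were highest at 8pm (10.44 and 12.34, log2), with Kcnq1 lowest at 8am (9.75) and Kcne3 at 12am (11.70). Kcne3 was nearly as high at 4pm there, 12.32 from 4pm a alone.

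Kcnn4 encodes the intermediate-conductance channel opened by calcium, which hyperpolarises the epithelial cell during secretion. Its signals at 8am were 1274, 917 and 990.1, those at 12pm 1397, 1368 and 1307, and those at 4pm 1175, 1668 and 1879. The 8pm arrays gave 1301, 1107 and 1520, the 12am arrays 1874.5, 1099 and 1325.5, and the 4am arrays 2017, 1116 and 1039.7. Every pair of neighbours in the order of means overlapped, and so did the highest and lowest, 10.61 ± 0.35 at 4pm and 10.06 ± 0.24 at 8am (log2, SD, n = 3 each). The 24 h amplitude of this gene, the one with an E-box in its window, was 0.15 ± 0.12 with a limma adjusted p of 0.948.

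The second probe set of Kcnn4, 1421038_a_at, gave 33.4 in 4am a and 18 in 4am b, against 371 to 791 in the 14 arrays of low Gapdh ratio and 527 in 4am c. It gave 401 in 4pm b and 287 in 4pm c. The probe set of highest mean, 1435945_a_at, gave 2017 and 1116 in the same 4am a and 4am b, so the readings of 1 gene parted in these arrays. Over the 14 arrays the pair correlated at r = 0.79 and over all 18 at r = -0.14. At the level of probe sets 1421038_a_at changed between the sets of times (limma adjusted p = 0.0308), 1 of 6 member probe sets of 16 to do so beside 33.9% of all probe sets.

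Kcnma1 encodes the pore of the large-conductance potassium channel, which carries potassium secretion across the luminal membrane and is abundant in smooth muscle. Its signals at 8am were 409.7, 307 and 463, those at 12pm 617, 552.5 and 495, and those at 4pm 586, 764 and 646. The 8pm arrays gave 395, 432 and 351, the 12am arrays 519, 502 and 585, and the 4am arrays 1073, 859.6 and 459. The arrays of 8am and 8pm were all below those of 12pm, 12am and 4pm, and the 4 highest of all 18 were the 4 arrays of high Gapdh ratio, above the 307 to 617 of the others. The array 4am c, of low ratio, gave 459 and lay with those of 8am and 8pm. The mean log2 level was 9.58 ± 0.62 at 4am and 8.66 ± 0.29 at 8am (SD, n = 3 each), a 1.90-fold difference with overlapping arrays, and in the order of means (4am, 4pm, 12pm, 12am, 8pm, 8am) only 12am and 8pm did not overlap.

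Kcnma1 averaged 8.66 ± 0.21 over 8am and 8pm, 9.13 ± 0.12 over 12pm and 12am and 9.49 ± 0.42 over 4pm and 4am (log2, SD, n = 6 each; limma adjusted p = 0.0112 between sets). The last set was 1.78-fold and the middle set 1.38-fold above the first. Without the 4 arrays of high Gapdh ratio the adjusted p was 0.0293, but the last set, then 2 arrays, averaged 9.06, which was 1.32-fold above the first and below the middle set. The order of the last pair of sets and the 1.78-fold difference thus rested on those 4 arrays. Within the sets the differences of Kcnma1 were -0.01, 0.05 and -0.18 (log2, SE 0.26 for each; adjusted p = 0.956), and the 24 h amplitude was 0.05 ± 0.15. The mean over the smooth muscle markers was 12.45 and 12.28 at 8am and 8pm, 12.51 and 12.57 at 12pm and 12am, and 12.24 and 11.42 at 4pm and 4am, and 1 of these 8 markers changed between the sets. With all arrays, the marker mean was lowest in the set where Kcnma1 was highest, 4pm with 4am. In the high-ratio arrays of that set it was 9.79 (4am a), 11.70 (4pm b), 12.00 (4am b) and 12.78 (4pm c). In its low-ratio arrays it was 12.25 (4pm a) and 12.47 (4am c), within the 11.89 to 12.77 of 8am. The part of the smooth muscle share in the Kcnma1 result was not tested.

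The probe sets of Kcnma1 did not read alike either. Over the 14 arrays of low Gapdh ratio r with 1428948_at was 0.76 for 1457018_at, 0.61 for 1440728_at, 0.49 for 1425987_a_at and -0.35 for 1424848_at. Only 1457018_at changed between sets as well (limma adjusted p = 0.0351), with a mean of 6.47 over 8am and 8pm, 7.47 over 12pm and 12am and 7.54 over 4pm and 4am (log2), at signals from 43.1 to 443. In 4am a and 4am b 1425987_a_at gave 225 and 239, below the 251 to 629.8 of the 14 arrays, whereas 1428948_at gave its 2 highest signals there. When the mean of all 5 stood for the gene, the between-set adjusted p was 0.0930.

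**Figure D3:**
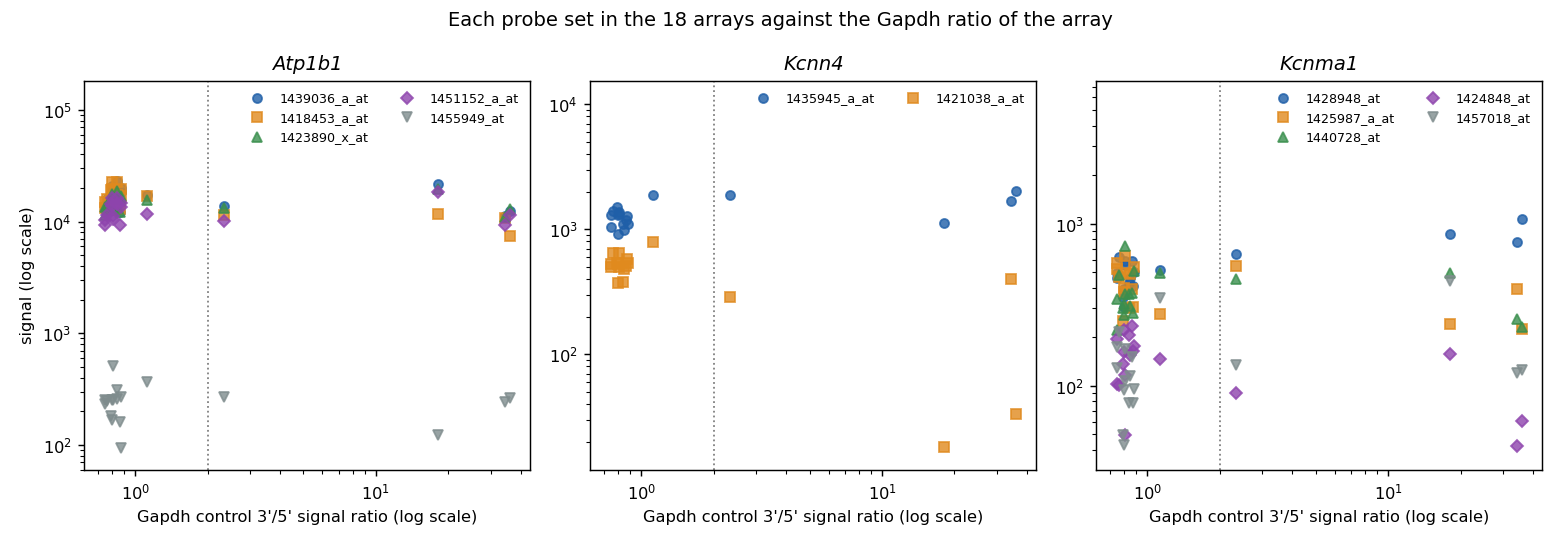
Signal of each probe set of Atp1b1, Kcnn4 and Kcnma1 in the 18 arrays (log axis) against the 3′ to 5′ ratio of the Gapdh control of the array (log axis), with a dotted line at 2. Symbols are probe sets, whose levels are not comparable with each other. To the right of the line, Kcnn4 1421038_a_at is at 33.4 and 18 in 4am a and 4am b and Kcnma1 1428948_at lies above its other arrays.

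The members had no common order of times. The 21 pairs of members had r from -0.53 (Kcnq1 with Kcnma1) to 0.53 (Kcnn4 with Kcnma1) over the 18 arrays, with a median of -0.01. For each member the genes of most similar pattern were taken by Pearson r among 12238 named genes, a description over arrays that share their scaling and RNA quality. Atp1b1 had the closest, Muc3 and Tpt1 (r = 0.99 each) and Zg16 (r = 0.98), the last a secreted goblet cell protein. Kcnma1 was followed by Rnf114 (0.92), Ago2 (0.91) and Fbln5 (0.90), the last an elastic fibre protein. Kcnn4 had Lrrc8a (0.88), a subunit of the volume-regulated anion channel, then Aprt and Blmh (0.87 each). Kcne3 had Myb (0.88), Rnf145 (0.87) and Afg3l2 (0.84), and Kcnq1 had Dcxr (0.87), Yars (0.85) and Galnt6 (0.85). Atp12a and Fxyd4 had looser neighbours: Slc9a3r1, a scaffold of apical transporters (0.71), Cstdc2 (0.70) and Lss (0.69) for the first, and Rsph9 (0.74), Clec11a (0.74) and Gstt1 (0.73) for the second. The nearest other member to Atp12a was Kcnq1, at place 348 (r = 0.38 over 18 arrays, 0.59 over the 14 of low Gapdh ratio). Without the 4 arrays r of Fxyd4 with Atp1b1 was 0.65 in place of 0.35.

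The other genes of the pathway were read from lists of subunits, channels and cotransporters. Of 8 other pump subunits 4 were tested and none passed the any-time test. Atp4a and Atp4b, the gastric proton-potassium pump, had the lowest adjusted p (0.0829 and 0.136 by limma). Of 6 other FXYD proteins 4 were tested and Fxyd5 changed between times (adjusted p = 0.0223), with its highest mean log2 level at 12am (9.94 ± 0.15) and its lowest at 4am (8.82 ± 0.59, SD, n = 3 each).

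Of 9 partners of the member channels 5 were tested and 1 passed, Kcnmb2, a subunit of the large-conductance channel (limma adjusted p = 0.0435), lowest at 4pm (6.25 ± 0.46) and highest at 12am (7.62 ± 0.62). Kcnmb2 was dim. Its means at 4pm and 12pm (6.99) lay below the 7.10 that the filter on low values required over all arrays. Without detection calls, whether it was above background cannot be read. Lrrc26, which lets the large-conductance channel open at resting voltage, had a limma adjusted p of 0.0561. Of 24 other potassium channels 10 were tested and 1 passed, Kcnk5, a two-pore channel (adjusted p = 0.0210), whose mean was 11.05 ± 0.16 at 8pm and 8.38 ± 1.65 at 4am. Of 4 potassium cotransporters 3 were tested, and Slc12a2, the basolateral sodium-potassium-chloride cotransporter that feeds secretion, changed (adjusted p = 0.0423), from 12.27 ± 0.33 at 12am to 13.18 ± 0.32 at 4am. Each of these 4 genes had its highest or lowest mean at 4am or 4pm, the times of the 4 arrays of high Gapdh ratio, and the part of those arrays in these calls was not tested.

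Of 7 genes of the aldosterone axis 6 were tested, and none passed the any-time test. Nr3c2, the mineralocorticoid receptor, and Scnn1a, the alpha subunit of the sodium channel, had the lowest limma adjusted p, 0.0669 and 0.0794. Between the sets of times, the 6 lists in the order given had 1, 1, 3, 4, 1 and 2 genes that changed, beside 35% of all genes. Among them were Atp4a (limma adjusted p = 0.0306), Scnn1a (0.0308) and Nr3c2 (0.0310). Atp4a was dim too, with a mean of 6.98 (log2) over 8am and 8pm, below that 7.10 of the filter. Over the 6 lists, no gene passed the 24 h test, the light against dark test or the joint test within sets.

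The calls of the members depended on the arrays used. Without the 4 arrays of high Gapdh ratio 3 of 7 members passed the any-time test, Atp12a, Atp1b1 and Fxyd4, beside 20.5% of all genes, and without the 3 of highest ratio the same 3 did, beside 22.8%. None passed the 24 h test or the light against dark test in either fit. With array quality weights 6 of 7 passed, all but Kcnn4, but so did 69.7% of all genes. Leaving out 4am c, the only 4am array of low Gapdh ratio, gave 5 of 7 beside 53.9% of all genes.

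**Figure D4:**
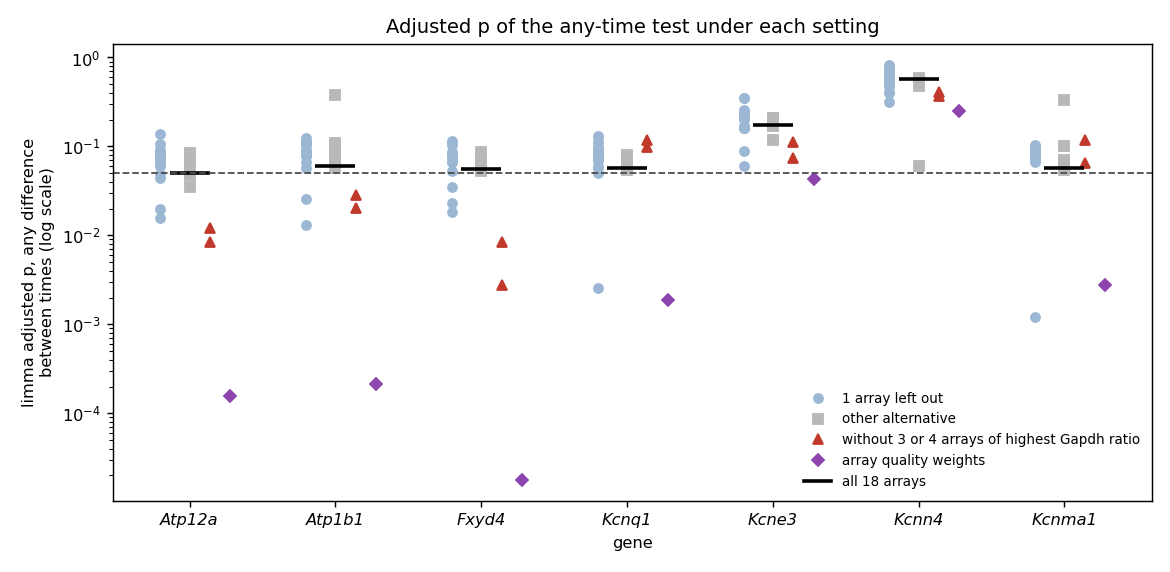
Limma adjusted p of the any-time test (log axis) for each gene with all 18 arrays (black bars) and under each alternative (points), with a dashed line at 0.05. The red triangles, without the 3 or 4 arrays of highest Gapdh ratio, are under the line for Atp12a, Atp1b1 and Fxyd4 and above it for the other genes.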

How the data were processed

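The deposited intensity values, 1 signal per probe set and array, are what the authors obtained from the Affymetrix software GCOS, named without a version in the submitters' processing notes; the signal is linear, and each array has the same mean after 2% trimming at either end. The file gives no detection calls, so precision is limited by the number of arrays. The 64 control probe sets served only for array quality. Values were taken as log2(signal + 16), and probe sets with a mean at or above the 40th percentile (7.10) were kept, 27022 of 45037. The probe set of highest mean stood for a gene. Gene symbols came from the platform annotation.

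Titles gave each array its collection time. With limma 3.58.1 in R 4.3.3, a fit of 6 means (12 residual degrees of freedom) gave the any-time test, the tests between and within the 3 sets of times 12 h apart and the light-minus-dark contrast, and a cosine fit (15 residual degrees of freedom) gave the 24 h test, all two-sided with empirical Bayes moderation and a trend. The fits were tested on simulated data with planted curves. The members, the lists and the 3 sets of times were chosen with earlier results of these data known. Named genes are the members, up to 4 called genes per list or else the 2 with the lowest p, and the 3 genes of highest r with each member; Lrrc26 was added after its values were seen. Alternatives changed the constant, normalization, filter, probe set, moderation, weights, block and arrays used.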

Additional observations from a re-analysis of the deposited data

Results flagged for a closer look

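The difference of Fxyd4 between times 12 h apart changed its sign between pairs. It was 0.59 (log2) for 8am minus 8pm, with every array of 8am above every array of 8pm, and -0.41 for 12pm minus 12am, with every array of 12pm below every array of 12am. The interaction test in the limma fit asked whether the difference was the same in all pairs of times 12 h apart. It thus also took in 4pm minus 4am, at -0.60, the pair that holds all arrays of high Gapdh ratio. It gave an unadjusted p of 0.0093 and an adjusted p of 0.387 over all genes, which misses the threshold. Fxyd4 was flagged for its values in these same data, so the comparison was not fixed beforehand. Kcnq1 had a smaller unadjusted p in the interaction test, 0.00438 (adjusted p = 0.386), and missed the threshold too.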

How the results depend on the processing

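Of the 7 members, the any-time test called 1 with a constant of 64, 1 with quantile normalization, 6 with array quality weights and 3 without the 3 or the 4 arrays of highest Gapdh ratio, against 0 with all arrays, and 0 to 5 with 1 array left out. Between sets it was 2, but 1 with quantile normalization (Atp1b1 lost), 4 with weights and 1 with the mean of probe sets (Kcnma1 lost). With 1 array left out it was 1 to 4. Within sets 3 were called with weights and 0 to 2 with 1 array left out, for the 24 h curve 1 with weights (Fxyd4), and for light against dark 1 with weights and 0 to 1 with 1 array left out. Of the 16 probe sets, the any-time test called 11 with weights, 6 without the 3 or the 4 arrays and 0 to 8 with 1 array left out, against 1. The any-time share over all genes was 18.9% with a constant of 64, 15.3% with quantile normalization and 69.7% with weights. Between sets it was 32.4% with quantile normalization, 61.6% with weights and 31.6% with the mean of probe sets. The shares over all probe sets under the alternatives were not counted, so the probe set counts have no background. The causes were not tested. Over all genes, weights called 8974 in the any-time test, 7929 between sets, 3831 within sets, 120 for the 24 h curve and 1942 for light against dark, against 2183, 4503, 10, 5 and 0, and leaving out 1 array gave 792 to 6942, 2957 to 7533, 2 to 2515, 1 to 8 and 0 to 955. For the 24 h curve a constant of 64 or quantile normalization gave 8, and an added 12 h harmonic 11; within sets, leaving out the 4 arrays gave 18.

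Replicate letters did not pair the arrays: over 45 same-letter pairs the correlation of deviations had a median of -0.01, and 4 of 18 arrays correlated best with their own letter. The fit with the letter as a replicate block called 0 members in the any-time test, 2 between sets and 0 in the other tests, and over all genes 1773, 4374, 6 within sets and 1 for the 24 h curve. Some values that passed no test changed sign. The light-minus-dark difference of Atp1b1 was 0.0397 with quantile normalization, that of Kcnq1 0.0103 with weights and -0.105 to 0.0655 with 1 array left out, that of Kcnn4 0.0544 without the 3 arrays, 0.32 with the mean of probe sets and -0.10 to 0.0559 with 1 array left out, and that of Kcnma1 0.15 and 0.13 without the 3 and the 4 arrays, 0.0057 with the mean of probe sets and -0.16 to 0.036 with 1 array left out. The 24 h peak moved by more than 6 h for Atp1b1 with quantile normalization (amplitude 0.0198) and for Kcnma1 with weights (0.15), without the 3 arrays (0.14) and without the 4 (0.0868). With 1 array left out the peak of Kcnma1 moved so only without 4am a (amplitude 0.0761) or 4am b (0.035). Of the other alternatives for single members, 993 kept direction and call, 39 gained a call and 5 lost one.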
